A study of Mus musculus with 4 samples.

Results

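Expression of 10 genes that respond to oxidative, electrophilic or metal stress was examined in primary mouse hematopoietic stem and progenitor cells (HSPCs) after loss of Chaf1b, a subunit of the histone chaperone CAF-1. The genes were Hmox1, Nqo1, Gclc, Gclm, Txnrd1, Srxn1, Slc7a11 and Sqstm1, which are known targets of the transcription factor NRF2, and the metallothioneins Mt1 and Mt2. They were picked by symbol as known stress genes, with no cutoff on a measured value but with earlier results of these data known. All 10 were found once among the 43629 gene identifiers of the count tables. CD117+ HSPCs came from C57Bl/6 mice with floxed Chaf1b alleles and grew in medium with SCF, IL-6 and IL-3. Both groups received the retroviral vector MIGR1, which also carries eGFP. In the control group, MIGR1 (genotype Chaf1b fl/fl), the vector was empty, and in the deleted group, dChaf1b (Chaf1b -/-), it carried Cre recombinase. eGFP-positive cells were collected 48 h after spinfection, and RNA was sequenced from 2 libraries per group. The control carried no Cre, so an effect of Cre itself cannot be told apart from the loss of Chaf1b, and the labels do not say whether same-group libraries came from separate animals or cultures. The p-values therefore measure only the spread between these libraries, which may be technical between the controls. The 2 dChaf1b libraries differed in sex by their Xist and Y-linked transcripts (values below), so they did not come from the same animal.

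NRF2, encoded by Nfe2l2, is held at low levels by the adaptor KEAP1, which delivers it to a cullin 3 ubiquitin ligase. When KEAP1 is modified by oxidants or electrophiles, NRF2 accumulates, pairs with small MAF proteins and binds antioxidant response elements in its target genes, which BACH1 can repress. Metallothioneins are small, cysteine-rich proteins that bind zinc and copper, and their genes are switched on by the zinc-sensing factor MTF1 through metal response elements. In blood cells, these systems buffer the oxidants of myeloid cells, and heme oxygenase is a prominent product of macrophages that recycle iron.

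The promoters of Mt2, Mt1, Gclm and Sqstm1 are shown because the first pair varied most among the libraries, Gclm holds a match to the antioxidant element while its groups overlapped, and Sqstm1 had the smallest p of the 10 genes. Each line gives the 250 bases before the RefSeq start of the gene in GRCm38.p6, 5′ to 3′ on the strand of the gene. Promoters were matched for 8 of the 10 genes. In the metallothionein lines, capitals mark matches on either strand to the core of the metal response element, searched as TGCACNC and TGCGCNC. In the Gclm line, capitals mark the match to the core of the antioxidant response element, searched as TGACNNNGC on both strands, and Sqstm1 holds neither core.
Mt2, chr8:94172368-94172617, + strand: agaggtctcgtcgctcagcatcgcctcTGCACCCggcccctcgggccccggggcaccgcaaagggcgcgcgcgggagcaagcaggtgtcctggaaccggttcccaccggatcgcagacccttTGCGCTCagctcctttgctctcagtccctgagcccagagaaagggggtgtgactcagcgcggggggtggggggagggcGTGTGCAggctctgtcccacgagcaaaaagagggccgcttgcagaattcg
Mt1, chr8:94178839-94179088, + strand: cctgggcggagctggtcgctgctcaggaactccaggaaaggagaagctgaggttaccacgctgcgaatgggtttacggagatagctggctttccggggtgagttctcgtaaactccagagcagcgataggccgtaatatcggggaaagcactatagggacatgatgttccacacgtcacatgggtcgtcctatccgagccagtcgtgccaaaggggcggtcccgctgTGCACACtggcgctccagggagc
Gclm, chr3:122245307-122245556, + strand: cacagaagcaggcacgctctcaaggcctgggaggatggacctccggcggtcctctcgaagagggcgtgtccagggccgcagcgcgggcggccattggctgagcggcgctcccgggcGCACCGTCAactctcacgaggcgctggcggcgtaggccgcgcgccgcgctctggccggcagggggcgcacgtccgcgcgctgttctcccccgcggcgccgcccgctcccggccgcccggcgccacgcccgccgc
Sqstm1, chr11:50210821-50211070, - strand: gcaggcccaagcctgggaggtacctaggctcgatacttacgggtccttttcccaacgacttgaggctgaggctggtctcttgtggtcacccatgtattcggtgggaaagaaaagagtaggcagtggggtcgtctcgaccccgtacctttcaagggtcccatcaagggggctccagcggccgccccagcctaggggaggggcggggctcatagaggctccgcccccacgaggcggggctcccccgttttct

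The Mt2 window held 3 matches to the metal element and the Mt1 window 1. Among 32851 promoters of the same length, 21.4% held at least 1 such match and 1.26% held 3 or more. The antioxidant core was matched in 10.2% of the promoters. Among the other genes, the Gclm window held 2 metal cores, the Srxn1 window 1 and the other windows none. The antioxidant core occurred once in the windows of Gclm and Mt2 (in the latter it is not capitalized) and once in 1 of the 3 windows of Txnrd1, and the windows of Srxn1, Slc7a11, Nqo1 and Sqstm1 held none. The Mt2 match also reads as the AP-1 motif TGACTCA, which the antioxidant core can contain, and the Gclm match overlaps a metal core. With the 50 bases after the start added, the metal core was matched 4 times for Mt2, 3 times for Mt1 and 3 times for Gclm. Srxn1 then also held 1 antioxidant core. No share over all promoters was computed at that length, and the contrast between Mt2 and Mt1 thus depends on the window. A match is a description of the letters in these windows and not evidence of binding.

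Reads counted on genes numbered between 18468637 and 25409926 per library, so that 3 counts correspond to 0.118 to 0.162 CPM. CPM is the usual depth-scaled count, the reads of a gene relative to all reads counted on genes in its library. Values below are CPM unless another scale is named. Their 95% intervals (Wilson) cover counting error only and leave out the spread between libraries. Reads carry no molecular identifiers, so copies of a molecule cannot be told apart and the intervals may be too narrow even for that error. Chaf1b, the targeted gene, had 80.3 and 57.9 CPM in the controls and 16.1 and 17.9 in the dChaf1b libraries, and had a log2 fold change of -2.01 (SE, the standard error, 0.25). It was called, as the only gene that fell (Benjamini-Hochberg adjusted p = 0.0330 in the edgeR quasi-likelihood test, QL test below). With the replicate number as a block the fall missed the threshold (adjusted p = 0.0590), as it did when each library had to hold 10 counts or more (adjusted p = 0.0651). Kit, which encodes CD117, was present in all libraries at 95.6 to 124 CPM, while the 6 neutrophil marker genes together reached 48350 to 66150 CPM, so the cells also held abundant granulocyte transcripts. The library dChaf1b replicate 1 stood apart from the other 3. It had 336 CPM of Xist and 3 counts over 4 Y-linked genes, against at most 1.30 CPM and at least 5805 counts in the others. Its 20 interferon-stimulated genes summed to 1953 CPM, against 242 and 258 in the controls and 299.8 in dChaf1b replicate 2. For the 10 genes and the others that rest most on this library, values without it are given too, and the part of interferon or sex in them was not tested.

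None of the 10 genes was called as differentially expressed. A call required a change of at least 1.5-fold and an adjusted p under 0.05 in the QL test over the 16500 genes that passed the low-count filter. All 10 genes passed that filter. Across all genes tested, 0.37% were called higher in dChaf1b (61 genes) and 0.00606% lower (1 gene, Chaf1b itself). At an unadjusted p under 0.05, 2 of the 10 genes were higher (Sqstm1 and Slc7a11) and none was lower, against 1510 higher and 512 lower among all genes tested. edgeR's exact test, its likelihood ratio test and DESeq2 each called 1 of the 10, which was Sqstm1 in every case, and edgeR without a low-count filter called 2, Sqstm1 and Mt2. These settings also called far more genes higher in all, 3.25% with the exact test, 3.53% with the likelihood ratio test, 2.86% with DESeq2 and 2.57% of 31399 genes without the filter, against which the 1 or 2 of the 10 are to be read. The median log2 fold change of the 10 genes was 0.26, beside -0.03 over all genes tested, with 6 genes higher and 4 lower. It was -0.10 without dChaf1b replicate 1, 0.55 without dChaf1b replicate 2 and 0.56 without MIGR1 replicate 2, so single libraries decided it.

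**Figure D1:**
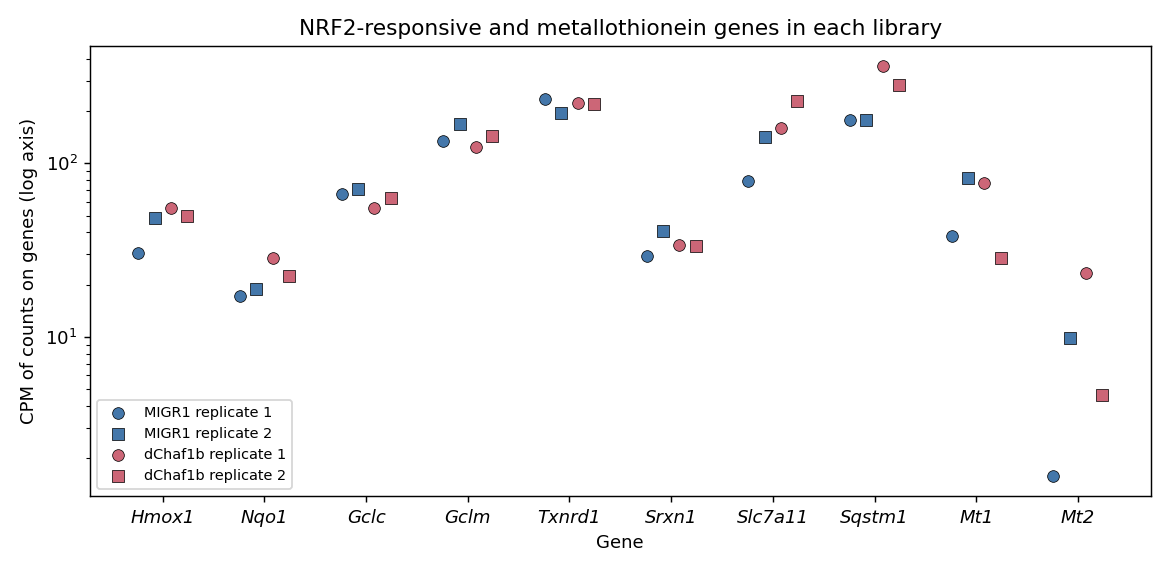
Level of each of the 10 genes in each library, as CPM of the counts on genes on a log axis. Blue points are the 2 MIGR1 libraries and red points the 2 dChaf1b libraries, with circles for replicate 1 and squares for replicate 2. Both red points lie above both blue points for Hmox1, Nqo1, Slc7a11 and Sqstm1, and those of Mt1 and Mt2 are spread widely within each group.

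In 4 of the 10 genes, both dChaf1b libraries lay above both controls (Hmox1, Nqo1, Slc7a11 and Sqstm1), a pattern shown by 21.4% of all genes tested. In 1 gene, Gclc, both lay below both controls, as in 22.9% of all genes tested. In the other 5, the groups overlapped.

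Sqstm1 encodes p62, an autophagy receptor that also binds KEAP1 and so releases NRF2. Its levels were 177 CPM (95% interval 172 to 182.5) in MIGR1 replicate 1, 177.5 (172 to 183) in MIGR1 replicate 2, 362 (354 to 369.6) in dChaf1b replicate 1 and 284 (277 to 292) in dChaf1b replicate 2. The controls were alike within counting error and both deleted libraries were higher, with group means of 177 ± 0.358 and 323 ± 55.0 CPM (SD, n = 2 each). The log2 fold change was 0.91 (SE 0.25, 95% interval 0.33 to 1.48), which is 1.87-fold, and the test did not pass the threshold after adjustment (unadjusted p = 0.00677, adjusted p = 0.20 in the QL test). Other tools placed it past the threshold, with an adjusted p of 0.0329 in DESeq2, 0.0437 in edgeR's likelihood ratio test and 0.0477 in its exact test, as did the QL test on unfiltered genes (0.0234). Without dChaf1b replicate 1, the library with high interferon-stimulated genes, the log2 fold change was 0.60 (adjusted p = 0.267), and without dChaf1b replicate 2 it was 1.17 (adjusted p = 0.0357, QL test), in a fit that called 1.89% of all genes higher. Sqstm1 (ENSMUSG00000015837) lies on the minus strand of chromosome 11, from 50012868 to 50024329 of NCBIM37. There, 580 of its 3356 exonic bases overlap exons of 3010026O09Rik on the other strand, whose reads cannot be told apart if counting ignored strand.

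Slc7a11 encodes xCT, the cystine transporter that supplies cysteine for glutathione, and is a target of ATF4 as well as of NRF2. It had 78.7 and 142 CPM in the controls and 159.5 and 230.1 in the dChaf1b libraries. The groups did not overlap, but the lower deleted library was close to the higher control. The log2 fold change was 0.83 (SE 0.30, 95% interval 0.14 to 1.53), with an unadjusted p of 0.0249 and an adjusted p of 0.313 in the QL test. It was 0.47 without MIGR1 replicate 1 and 1.30 without MIGR1 replicate 2, and 0.98 without dChaf1b replicate 1. A share of 10.2% of its exonic 31-base stretches is found at a further place in the genome, more than for the other 9 genes.

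Hmox1 and Nqo1, both classical NRF2 targets, encode heme oxygenase 1, which degrades heme to biliverdin, and a quinone reductase. Hmox1 had 30.4 and 48.4 CPM in the controls and 55.2 and 50.0 in the dChaf1b libraries, and MIGR1 replicate 1 alone was clearly lower than the rest. Its log2 fold change was 0.45 (SE 0.27, 95% interval -0.18 to 1.08, adjusted p = 0.565). It was 0.16 without MIGR1 replicate 1, 0.81 without MIGR1 replicate 2 and 0.27 without dChaf1b replicate 1. Nqo1 had 17.1 and 18.9 CPM in the controls and 28.6 and 22.4 after deletion, so that the controls were close together and both deleted libraries were higher. Its log2 fold change was 0.54 (SE 0.27, 95% interval -0.08 to 1.16, adjusted p = 0.480), and 0.24 without dChaf1b replicate 1. For both genes the interval includes no change as well as a 2-fold increase.

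Gclc and Gclm encode the catalytic and modifier subunits of glutamate-cysteine ligase, which catalyses the first step of glutathione synthesis. Gclc had 66.4 and 71.2 CPM in the controls and 55.2 and 62.9 in the dChaf1b libraries, the lower level in both, with a log2 fold change of -0.20 (SE 0.20, 95% interval -0.65 to 0.25, adjusted p = 0.749). Gclm had 135 and 169 CPM in the controls and 123 and 143 after deletion, and the groups overlapped. Its log2 fold change was -0.17 (SE 0.21, 95% interval -0.65 to 0.31, adjusted p = 0.804). Without dChaf1b replicate 1, the values were -0.21 for Gclc and -0.17 for Gclm. In terms of fold, the intervals run from 0.636 to 1.19 for Gclc and from 0.637 to 1.24 for Gclm, so a doubling of either transcript lies outside them. The Gclm promoter above holds the antioxidant core once. Gclm shares 296 of its exonic bases with exons of Gm17494 on the other strand.

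Txnrd1 and Srxn1 act in the thioredoxin system, the former as the cytosolic thioredoxin reductase and the latter as sulfiredoxin, which restores overoxidized peroxiredoxins. Txnrd1 had 236 and 194 CPM in the controls and 223 and 219 in the dChaf1b libraries, both of which lay between the controls. Its log2 fold change was 0.07 (SE 0.22, 95% interval -0.44 to 0.58, adjusted p = 0.938), and the sign turned to -0.079 without MIGR1 replicate 2 and to -0.05 without dChaf1b replicate 1. Srxn1 had 29.4 and 40.6 CPM in the controls and 33.9 and 33.3 after deletion, again between the controls. Its log2 fold change was -0.03 (SE 0.24, 95% interval -0.58 to 0.52, adjusted p = 0.975). The value was -0.15 without dChaf1b replicate 1, 0.20 without MIGR1 replicate 2 and 0.09 without dChaf1b replicate 2. For both genes a doubling lies outside the interval.

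**Figure D2:**
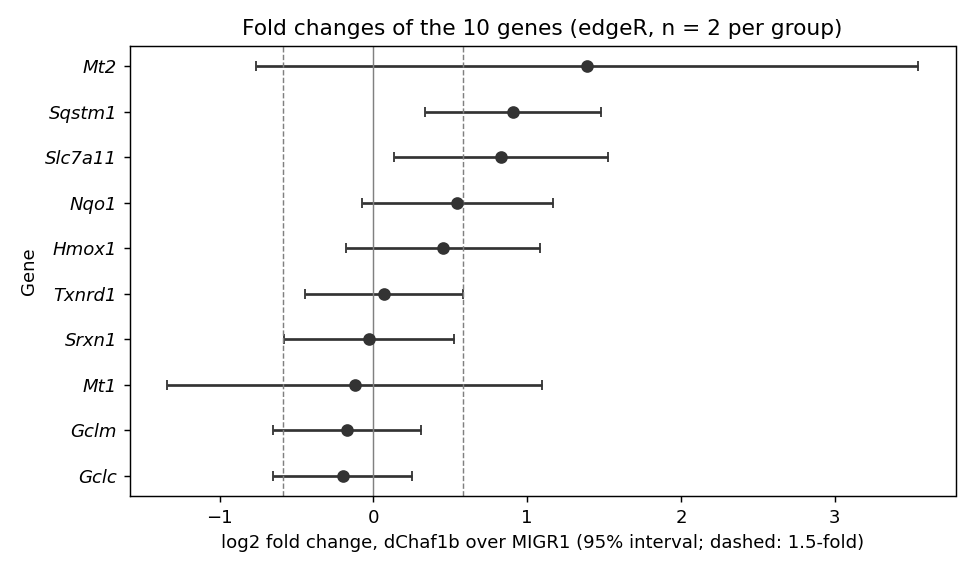
Log2 fold change of dChaf1b over MIGR1 for each of the 10 genes from the edgeR QL fit, with its 95% interval. The solid line marks no change and the dashed lines a change of 1.5-fold. The intervals of Sqstm1 and Slc7a11 lie above 0 before adjustment, and those of Mt1 and Mt2 are the widest. Those of Gclc, Gclm, Txnrd1 and Srxn1 are the narrowest and include 0, but Gclc and Gclm reach past the lower dashed line.

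The metallothioneins differed more between libraries of the same group than between the groups. Mt1 had 38.4 and 82.3 CPM in the controls and 76.6 and 28.4 in the dChaf1b libraries, so that 1 library of each group was high and 1 was low. Mt2 had 1.58 and 9.88 CPM in the controls (36 and 251 counts) and 23.4 and 4.60 in the dChaf1b libraries (552 and 85 counts), with the same libraries high. Between the 2 controls, Mt1 differed 2.15-fold and Mt2 6.24-fold, both higher in replicate 2. Between the 2 dChaf1b libraries they differed 2.7-fold and 5.10-fold, both higher in replicate 1. Of all genes tested, 0.424% had a larger gap between the controls than Mt2, and 1.47% had a larger gap between the dChaf1b libraries. For Mt1 these shares were 6.82% and 9.31%.

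Between the groups, the log2 fold change of Mt1 was -0.12 (SE 0.52, 95% interval -1.34 to 1.10, adjusted p = 0.951) and that of Mt2 was 1.39 (SE 0.93, 95% interval -0.76 to 3.54, adjusted p = 0.610). Both depended on single libraries. For Mt2, the value was -0.39 without dChaf1b replicate 1, 0.61 without MIGR1 replicate 1, 2.16 without dChaf1b replicate 2 and 3.23 without MIGR1 replicate 2, where it was called (adjusted p = 3.63e-05, QL test) along with 1.92% of all genes in that direction. For Mt1, the value was 0.51 without MIGR1 replicate 2, 0.48 without dChaf1b replicate 2, -0.57 without MIGR1 replicate 1 and -1.16 without dChaf1b replicate 1. In these fits 1 group holds a single library, which is assumed to vary like the other group.

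The balance of the pair also differed among libraries. Counts of Mt1 per count of Mt2 numbered 24.2 (95% interval 17.4 to 34.8) in MIGR1 replicate 1 and 8.33 (7.31 to 9.54) in MIGR1 replicate 2. They numbered 3.27 (2.97 to 3.6) in dChaf1b replicate 1 and 6.18 (4.90 to 7.86) in dChaf1b replicate 2. Both deleted libraries thus had a lower ratio than either control, and the intervals of MIGR1 replicate 2 and dChaf1b replicate 2 overlapped slightly. The genes lie next to each other on the plus strand of chromosome 8, Mt2 from 96696518 to 96697467 and Mt1 from 96702989 to 96704225 of NCBIM37. Exonic 31-base stretches with a second copy in the genome made up 5.58% for Mt2 and 0% for Mt1.

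**Figure D3:**
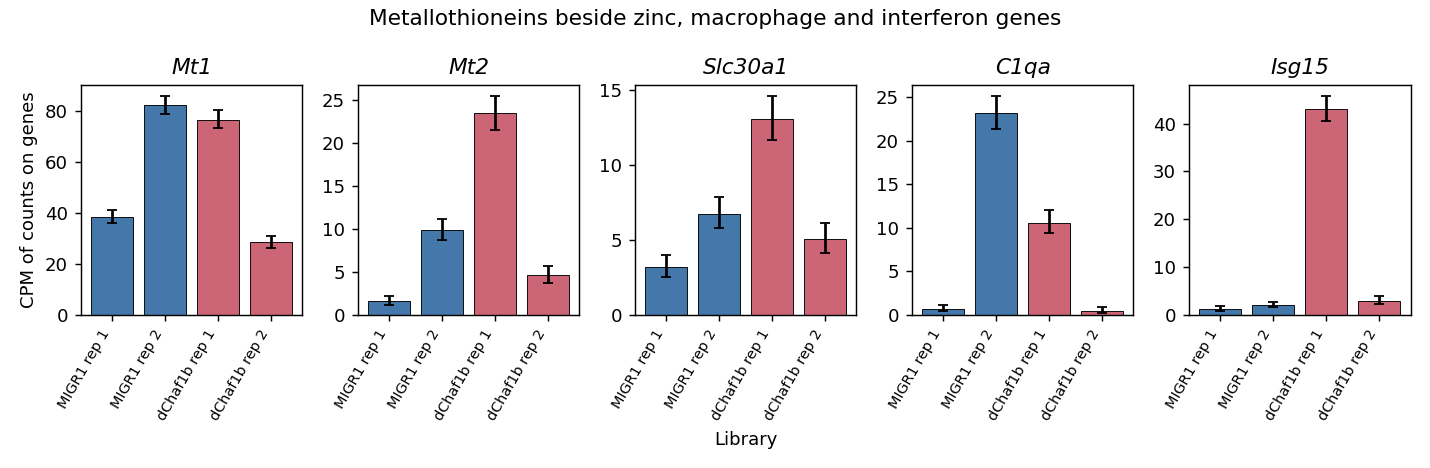
CPM of the counts on genes for Mt1, Mt2, the zinc exporter gene Slc30a1, the macrophage gene C1qa and the interferon-stimulated gene Isg15 in the 4 libraries, blue for MIGR1 and red for dChaf1b. Bars start at 0 and error bars are 95% intervals of counting error. MIGR1 replicate 2 and dChaf1b replicate 1 are the high libraries for the first 4 genes, and dChaf1b replicate 1 alone for Isg15. C1qa is 1 of 8 monocyte and macrophage markers, which did not move alike.

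Other transcripts varied with the metallothioneins across the libraries. Slc30a1, which encodes the zinc exporter ZnT1 and is a known MTF1 target, had 3.17 and 6.77 CPM in the controls and 13.1 and 5.04 in the dChaf1b libraries, the same order of the 4 libraries as Mt2. Without dChaf1b replicate 1, its log2 fold change was -0.06 in place of 0.94. C1qa, a complement gene of macrophages, had 0.660 and 23.2 CPM in the controls and 10.6 and 0.433 after deletion, and was high in the libraries where both metallothioneins were high. As a whole, the 8 monocyte and macrophage markers summed to 163 and 370.4 CPM in the controls and 318.5 and 276 in the dChaf1b libraries. They did not move alike. Without dChaf1b replicate 1, the log2 fold change was -4.84 for C1qa, but -0.35 for Csf1r, -0.20 for Vcam1 and -0.04 for Cd163. It was then 0.12 for Cd68, 0.56 for Emr1 and 1.25 for Spic. Of these 8 markers, 2 lay above both controls in both deleted libraries (Emr1, and Spic at under 0.5 CPM), beside 21.4% of all genes tested. None lay below, and Marco had at most 0.176 CPM in any library. Isg15 had 1.27 and 2.05 CPM in the controls and 43.1 and 2.98 after deletion, so that dChaf1b replicate 1 was far above the rest. All 20 interferon-stimulated genes were highest in that library. In the controls, 15 of the 20 were higher in MIGR1 replicate 2 than in replicate 1, 6 of them by at least 1.5-fold. Mx1, an interferon-stimulated gene, had 0.968 and 4.998 CPM in the controls and 11.98 and 1.95 after deletion, and thus was high in the same libraries as the metallothioneins. The part of zinc, macrophages or interferon in the metallothionein levels was not tested. In these bulk libraries, fewer cells of a type and less RNA per cell cannot be told apart.

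The genes whose centred log2 CPM lay nearest to Mt1 over the 4 libraries were Mgl2 (root mean square difference 0.0787), Olfm1 (0.111) and an unnamed gene, ENSMUSG00000095054 (0.165). For Mt2 they were Ccr3 (0.164), the interferon-stimulated Mx1 (0.192) and Ccl2 (0.245). Nearest to Hmox1 were Klf11 (0.0274), Abca8b (0.0405) and the unnamed ENSMUSG00000098215 (0.0421). With 4 libraries, many genes share a pattern by construction, and these are given as a description.

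Levels of different genes were compared as CPM per kilobase of exon. In the controls, Mt1 had the highest mean level of the 10 genes (80.1), followed by Txnrd1 (53.5), Sqstm1 (52.8), Gclm (29.6), Gclc (20.1), Hmox1 (18.2), Srxn1 (12.4), Nqo1 (11.6), Mt2 (10.3) and Slc7a11 (9.83). In the dChaf1b libraries Sqstm1 came first (96.2), ahead of Mt1 (69.8), Txnrd1 (55.0), Gclm (26.0), Mt2 (25.2), Hmox1 (24.4), Slc7a11 (17.3), Gclc (17.2), Nqo1 (16.4) and Srxn1 (11.9). The place of the metallothioneins in both orders is uncertain, since Mt1 ranged from 37.8 to 109 and Mt2 from 2.85 to 42.2 across libraries. Txnrd1 and Sqstm1 in the controls were not separated beyond their spread, with 58.6 and 48.4 against 52.7 and 52.9. In the dChaf1b libraries they were, with 55.5 and 54.5 for Txnrd1 against 108 and 84.7 for Sqstm1. Slc7a11 has the longest exons of the 10 genes (11245 bases), and so its low place per kilobase goes with a high CPM.

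The regulators of these genes showed no call either. Nfe2l2, which encodes NRF2, had 185 and 169 CPM in the controls and 224.5 and 194 in the dChaf1b libraries, which differ by 0.28 on the log2 scale (SE 0.23, adjusted p = 0.692). Keap1 had 52.2 and 53.7 CPM in the controls and 58.2 and 44.7 after deletion, and its log2 fold change was 0.00 (SE 0.25, 95% interval -0.57 to 0.57). Of the 10 regulators tested, 5 had a positive and 5 a negative log2 fold change, with a median of 0.0021, and none had an unadjusted p under 0.05. The small MAF genes Maff and Mafk, whose products pair with NRF2 or BACH1, had log2 fold changes of 0.65 (SE 0.31) and 0.62 (SE 0.29). That of the repressor Bach1 was 0.45 (SE 0.22), and the adjusted p of the 3 was 0.470, 0.467 and 0.476. Without dChaf1b replicate 1 the values were 0.51 for Maff, 0.14 for Mafk, 0.31 for Bach1 and 0.05 for Nfe2l2. Both deleted libraries lay above both controls in 4 of the 10 regulators (Nfe2l2, Bach1, Maff and Mafk) and below both in 3 (Cul3, Nfe2l1 and Mtf1), beside the 21.4% and 22.9% of all genes tested given above. Mafg (-0.10), Nfe2l1 (-0.10), which encodes the related factor NRF1, the ligase genes Cul3 (-0.28) and Rbx1 (0.0042) and Mtf1 (-0.05), which encodes the metal sensor, had smaller log2 fold changes, each with an adjusted p of 0.641 or more in the same test.

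Among 27 other known NRF2 targets, 26 were tested and none was called. An unadjusted p under 0.05 was found for 4 that were higher and 1 that was lower. Their median log2 fold change was 0.22. The 5 were Fth1, Ephx1, Osgin1, Gsta4 and Gss. Fth1, the ferritin heavy chain that stores iron, had 382 and 404 CPM in the controls and 834 and 753 in the dChaf1b libraries, a difference of 1.05 on the log2 scale (SE 0.24, adjusted p = 0.141), whereas Ftl1, the light chain, had 338.5 and 334.5 against 423.5 and 293.5. Ferritin genes have processed pseudogenes, so their counts are less certain. Osgin1, an oxidative stress response gene, had 6.51 and 10.5 CPM in the controls and 17.7 and 18.0 after deletion (log2 fold change 1.10, SE 0.32, adjusted p = 0.220). The epoxide hydrolase gene Ephx1 (log2 fold change 1.77) and the glutathione transferase gene Gsta4 (1.30) were low, at most 5.42 CPM in any library. For Gss, which encodes glutathione synthetase, the log2 fold change was -0.73 (SE 0.31, adjusted p = 0.400). The abundant pentose phosphate gene G6pdx (-0.08, SE 0.24) and glutathione reductase gene Gsr (0.23, SE 0.26) were not called.

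Of 15 heme and iron genes, which share Fth1, Ftl1 and Blvrb with the targets above, none was called. At an unadjusted p under 0.05, 1 was higher and 2 were lower. Beside Fth1, these were Alas1, the first enzyme of heme synthesis, and Tfrc, the transferrin receptor that imports iron. Alas1 had 626.5 and 796 CPM in the controls and 379 and 399 in the dChaf1b libraries (log2 fold change -0.84, SE 0.24, adjusted p = 0.213). Tfrc had 729.9 and 708 CPM in the controls and 416 and 459 after deletion (-0.69, SE 0.22, adjusted p = 0.266). In both genes the deleted libraries lay below both controls. The metal transporter gene Slc11a2 (-0.55) and the heme transporter gene Slc48a1 (-0.39) had adjusted p-values of 0.471 and 0.506. Hmox2, the constitutive heme oxygenase, had 42.2 and 39.3 CPM in the controls and 42.5 and 34.4 after deletion. Erythroid markers, which also use iron, summed to 51.8 and 29.8 CPM in the controls and 26.1 and 35.8 in the dChaf1b libraries, and their part in these values was not tested.

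Among 10 zinc and metallothionein partners, 8 were tested and none was called. The zinc importer genes Slc39a10 (log2 fold change -1.02, SE 0.39, adjusted p = 0.345) and Slc39a8 (-0.64, SE 0.26, adjusted p = 0.365) were the 2 with an unadjusted p under 0.05. Slc39a10 had 126 and 65.6 CPM in the controls and 30.2 and 65.3 in the dChaf1b libraries, so that MIGR1 replicate 2 and dChaf1b replicate 2 hardly differed. Its log2 fold change was -0.64 without dChaf1b replicate 1 (SE 0.36, adjusted p = 0.492), and that of Slc39a8 was -0.93 (SE 0.27, adjusted p = 0.205). The transporter genes Slc30a7 (-0.38), Slc39a1 (0.32) and Slc30a1 (0.94) had adjusted p-values of 0.511, 0.628 and 0.574. The other metallothioneins were at or near the floor, with Mt3 at 1, 1, 4 and 4 counts and Mt4 at 0 counts in all 4 libraries. For Mt4 the 95% counting interval reaches 0.208 CPM in the shallowest library, dChaf1b replicate 2.

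**Figure D4:**
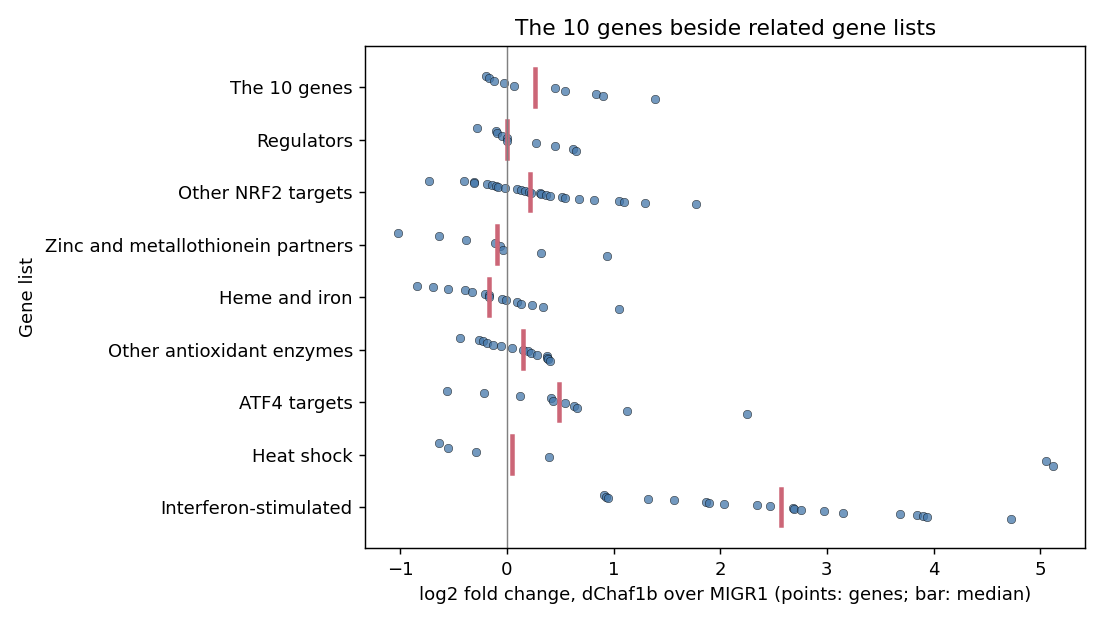
Log2 fold change of dChaf1b over MIGR1 for each tested gene (points) of the 10 genes and of 8 related lists, with the median of each list as a bar. The median of the 10 genes is 0.26, that of the other NRF2 targets 0.22 and that of the interferon-stimulated genes 2.57, the last carried by 1 library. The 2 points at the far right of the heat shock row are Hspa1a and Hspa1b.

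Of 16 antioxidant enzymes outside the NRF2 lists, 15 were tested and none was called or had an unadjusted p under 0.05, with a median log2 fold change of 0.15. Catalase (Cat, -0.44, SE 0.20, adjusted p = 0.435) and the superoxide dismutases Sod1 (0.41) and Sod2 (0.38) were the 3 with the lowest p, followed by Prdx4 (0.37) and Glrx (0.39). Among 10 genes of the ATF4 response, to which Slc7a11 also belongs, none was called, but the unadjusted p was under 0.05 for 3 that were higher and 1 that was lower (median 0.49). These were Sesn2 (log2 fold change 1.13, SE 0.22, adjusted p = 0.101), Atf3 (2.25, SE 0.61, adjusted p = 0.194), Ddit4 (0.63) and, lower, the asparagine synthetase gene Asns (-0.56). Ddit3 (0.65) had an adjusted p of 0.516. Atf3 had 4.05 and 9.60 CPM in the controls and 45.8 and 15.5 in the dChaf1b libraries, and without dChaf1b replicate 1 its log2 fold change was 1.11 (SE 0.48, adjusted p = 0.389). That of Sesn2 was then 0.95 (SE 0.24, adjusted p = 0.144), and the list's median was 0.28. Of 7 heat shock genes, 6 were tested and 2 were called higher, beside 0.37% of all genes tested. Hspa1a, at 0.440 and 0.197 CPM in the controls and 10.6 and 10.3 in the dChaf1b libraries, and Hspa1b, at 0.484 and 0.590 against 19.2 and 17.6, had log2 fold changes of 5.05 (SE 0.52, adjusted p = 0.0254) and 5.12 (SE 0.39, adjusted p = 0.0120). The pair is near identical in sequence, so the split of reads between them is uncertain. The other heat shock genes, Hspa8 (-0.55), Hsph1 (-0.63), Dnajb1 (0.39) and Hsp90aa1 (-0.29), were not called. Both calls held without dChaf1b replicate 1 (4.92 and 4.94).

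Of the 20 interferon-stimulated genes, none was called and 18 were higher at an unadjusted p under 0.05, led by Cxcl10, Oasl2, Isg15, Zbp1 and Rsad2. In 12 of the 20, both dChaf1b libraries lay above both controls, as in 21.4% of all genes tested. Over the 20, the median log2 difference from the control mean was 3.19 in dChaf1b replicate 1 and 0.27 in dChaf1b replicate 2. For the 10 stress genes these medians were 0.41 and -0.02. Without dChaf1b replicate 1, the median log2 fold change of the interferon-stimulated genes was 0.21. The 5 stem and progenitor markers did not move together, with 2 higher, 3 lower and a median log2 fold change of -0.08. The receptor gene Flt3 was called (log2 fold change 2.09, SE 0.28, adjusted p = 0.0383) and Cd34 had a value of 0.57 (SE 0.21, adjusted p = 0.325), while the transcription factor gene Myb, with 475 and 492 CPM in the controls and 297.5 and 334.5 after deletion, had a value of -0.59 (SE 0.21, adjusted p = 0.313), Gata2 one of -0.22 and Kit one of -0.08. All 4 megakaryocyte markers lay above both controls in both dChaf1b libraries, as did 21.4% of all genes tested, and none was called. Their summed levels were 89.5 and 89.0 CPM in the controls and 129.7 and 227.5 after deletion. Stem and progenitor markers summed to 859.0 and 829.6 CPM in the controls and 612 and 786 in the dChaf1b libraries. Mast cell and basophil markers to 466 to 751 and lymphoid markers to 6.29 to 18.8 over the 4 libraries, with Cd3e at 0 counts in dChaf1b replicate 1. The part of these cell types in the levels of the 10 genes was not tested.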

How the data were processed

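Gene counts from 4 RNA-seq libraries of HSPCs (2 MIGR1, 2 dChaf1b) were analysed. Stranded libraries of ribosome-depleted total RNA were aligned by the authors with STAR (build mm9), and HTSeq-count gave the reads of each gene. The deposited values are these counts per Ensembl identifier, without normalization or pooling. The annotation release and the strand setting of counting are not given in the sources used here. Of 43629 identifiers, 33068 have a name in GENCODE M1 (NCBIM37), and 10520 are numbered above its highest one, so the counting used a newer gene set and its exon limits can differ from the coordinates given here. Summary rows were left out. Of these, reads outside genes made up 42.3% and 42.1% of uniquely aligned reads in MIGR1 replicates 1 and 2. In dChaf1b replicates 1 and 2 they made up 35.8% and 48.3%, so the deleted libraries differed most.

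Differential expression was computed with edgeR 4.0.16 (limma 3.58.1, R 4.3.3) on all genes that passed filterByExpr with a minimum count of 10, with TMM factors (0.926 to 1.06), glmQLFit and glmQLFTest (legacy method) without a covariate, and Benjamini-Hochberg adjustment over 16500 genes. The thresholds of 1.5-fold and 0.05 follow the paper. The biological coefficient of variation was 0.276 and the prior degrees of freedom 5.68. Intervals of fold changes use the standard error and degrees of freedom of this fit. Counting intervals are Wilson intervals and ratios of counts use exact binomial intervals, all at 95%. Levels per kilobase use the union of annotated exons.

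The 10 genes and the lists were chosen with earlier results of these data known. Named were Chaf1b, the 10 genes, the 10 regulators, every called gene and up to 5 others with the smallest p in each list, and the 3 genes nearest to Mt1, Mt2 and Hmox1 (with 0.1 CPM added before the logarithm). Xist, the Y-linked genes, Ftl1, G6pdx, Gsr, Hmox2, Mt3, Mt4 and the single markers were chosen for mention once their values had been seen. Scripts were tested on simulated data before use. DESeq2 1.42.0 and the other alternatives were run as described at the end.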

Additional observations from a re-analysis of the deposited data

How the results depend on the processing

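Of 140 values of the 10 genes under alternatives, 133 kept their direction. The 7 that turned came from leaving out 1 library. Most of the 133 came from refits of the same 4 libraries, in which the direction could hardly change. Over the fits that left out 1 library, Txnrd1 ranged from -0.079 to 0.22, Srxn1 from -0.24 to 0.20, Mt1 from -1.16 to 0.51 and Mt2 from -0.39 to 3.23, on the log2 scale. The number of the 10 genes called was 0 in 10 of 16 alternatives, 2 without a low-count filter, and 1 with edgeR's exact test, its likelihood ratio test and DESeq2. With each library left out it was 0 to 1, and the median log2 fold change was -0.10 to 0.56. Over all genes tested, 62 were called (61 higher, 1 lower), 28 with DESeq2's size factors, 31 with library size only, 887 without a low-count filter (808 and 79, which tests 31399 genes), 3 with 10 counts in every library, 574 with the exact test, 623 with the likelihood ratio test, 506 with DESeq2, 14 with the replicate block, 0 at 2-fold and an adjusted p under 0.01 (2022 had an unadjusted p under 0.05 in edgeR's quasi-likelihood test), and 131 to 366 with each library left out. Chaf1b missed the threshold with 10 counts in every library (-2.0, adjusted p = 0.0651) and with the replicate block (-1.98, adjusted p = 0.0590).

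In the related lists, edgeR without a low-count filter called 3 other NRF2 targets, 1 zinc partner, 1 heme and iron gene, 2 ATF4 targets and 19 interferon-stimulated genes. The exact test called 1, 0, 2, 2 and 7. Over all genes tested, the fit without the filter called 2.57% higher and the exact test 3.25%. With each library left out, the ranges were 0 to 1, 0 to 1, 0 to 1, 0 to 2 and 0 to 19, with 0 interferon-stimulated genes called without dChaf1b replicate 1. The replicate block called 1 heat shock gene in place of 2. The cause of these differences was not tested. Same-numbered libraries did not deviate together (correlation 0.0140 over 16500 genes), so the numbers are not taken to pair the libraries, and under the block no gene of the 10 was called. The bias-adjusted quasi-likelihood method, chosen after seeing the data, called 0 of the 10. Depth limits what can be said of genes at a few counts, such as Mt3 and Mt4.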
